A study of Mus musculus with 20 samples.

Results

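The small leucine-rich proteoglycans (SLRPs) examined here were decorin (Dcn), lumican (Lum), biglycan (Bgn), fibromodulin (Fmod), osteoglycin (Ogn), asporin (Aspn) and prolargin (Prelp). These 7 genes were taken by name, with earlier results of these data known. They are 7 of 17097 genes with a named probe set and 7 of the 15556 genes that passed a filter on dim values. RNA from whole fragments of 20 orthotopic caecum tumours in C57BL/6J mice was measured on 1 array per tumour, and all values are deposited log2 RMA values. Treated mice were given galunisertib by mouth (10 mg by gavage, 2 doses per day, starting on day 11 and ending at sacrifice in week 5), and the control mice carried tumours of the same lines. Galunisertib is a small-molecule inhibitor of the kinase of the type I TGF-beta receptor. Each of 5 organoid lines (MTO) gave 2 galunisertib tumours and 2 control tumours. MTO68 and MTO93 are labelled parental with genotype LAKTP, MTO140 is labelled LiM with genotype LAKTP, MTO54 is parental LAKP and MTO207 is parental LAKT; what the letters stand for is not given in the labels. MTO140 organoids were injected under the serosa of the caecum, whereas tumours of the other lines were first grown under the skin and transplanted as pieces onto the caecum tip, so the line and the way of implantation cannot be told apart for MTO140. A whole fragment can hold grafted epithelium together with stroma of the mouse. Epithelial markers were high in all 20 tumours, with a mean over 11 markers of 9.36 to 10.72 in galunisertib tumours and 8.90 to 10.66 in control tumours.

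SLRPs are secreted proteins of the extracellular matrix whose leucine-rich repeats bind collagen fibrils and limit their thickness and spacing. They are made mainly by fibroblasts and other mesenchymal cells. Dcn and Bgn carry chondroitin or dermatan sulfate chains and bind TGF-beta, Lum and Fmod carry keratan sulfate, Aspn is a close relative of Dcn with a run of aspartates, Prelp binds heparan sulfate, and Ogn belongs to a separate class of the family. In cultured human fibroblasts TGF-beta is known to raise Bgn transcripts and to lower Dcn transcripts. In the mouse genome the genes lie in clusters of relatives: Dcn and Lum are neighbours on chromosome 10, Aspn and Ogn lie in a cluster with Omd and Ecm2 on chromosome 13, Prelp and Fmod lie near Optc on chromosome 1, and Bgn lies on chromosome X.

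Windows of 250 bases before a RefSeq start (GRCm38.p6) were used for 5 of the 7 genes, Bgn, Fmod, Ogn, Aspn and Prelp. The Prelp window lies wholly inside the annotated span of that gene, so it is no window before the outer start of the gene and is not printed. Those of Bgn, Fmod and Aspn are shown, because Bgn had the lowest unadjusted limma p of the 7 genes in the treatment comparison, Fmod carries 2 copies of the Smad motif CAGAC, the short sequence read by the transcription factors of the TGF-beta pathway, and Aspn stands for the pair on chromosome 13 whose windows hold the letters TATAAA. Each is written from the far end towards the start, on the strand of the gene, with motif matches on either strand in capitals. The Bgn window is chrX:73483351-73483600 on the plus strand, where the capitals are GC boxes. The Fmod window is chr1:134037004-134037253 on the plus strand, where the capitals are Smad motifs. The Aspn window is chr13:49544193-49544442 on the plus strand, where the first capitals are a CCAAT box on the opposite strand and the others are matches to the letters TATAAA.
Bgn: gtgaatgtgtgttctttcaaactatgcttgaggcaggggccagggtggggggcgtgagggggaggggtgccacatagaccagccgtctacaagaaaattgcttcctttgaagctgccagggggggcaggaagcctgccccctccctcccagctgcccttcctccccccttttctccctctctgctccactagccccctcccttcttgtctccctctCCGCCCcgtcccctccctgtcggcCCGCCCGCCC
Fmod: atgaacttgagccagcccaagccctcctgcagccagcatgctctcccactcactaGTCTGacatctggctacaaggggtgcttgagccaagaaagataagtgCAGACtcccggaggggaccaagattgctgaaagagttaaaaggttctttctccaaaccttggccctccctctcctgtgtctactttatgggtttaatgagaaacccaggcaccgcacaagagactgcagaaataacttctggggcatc
Aspn: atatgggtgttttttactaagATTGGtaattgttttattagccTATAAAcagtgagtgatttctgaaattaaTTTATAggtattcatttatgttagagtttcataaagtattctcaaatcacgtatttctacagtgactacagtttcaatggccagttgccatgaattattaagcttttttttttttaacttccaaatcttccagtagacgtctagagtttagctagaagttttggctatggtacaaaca

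The windows differ in base composition: G and C made up 64.4% of the Bgn window, 51.2% of the Fmod window and 30% of the Aspn window. Searched on both strands, the Smad motif CAGAC was in 2 of the 5 windows (Fmod and Prelp), against 42.2% of all 32851 promoter windows. The palindrome GTCTAGAC was in 0 of 5 (0.167% of all windows) and the AP-1 letters TGANTCA in 0 of 5 (6.75%). TATAAA was in the 2 windows of Aspn and Ogn, of the same cluster (12.4% of all windows), at 229 to 173 bases before the start. CCAAT was in those of Aspn and Prelp (33.8%), and the GC box GGGCGG only in that of Bgn (32.7%), with 3 matches of which 2 overlap. Among the 4 windows that lie outside their own gene, leaving out that of Prelp, CAGAC was in 1 and CCAAT in 1. These matches describe letters in a window and say nothing of binding.

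The first question was whether blocking TGF-beta signalling in the mouse changed the level of these genes over the 5 lines. The means of all 7 genes were lower in galunisertib tumours than in control tumours, and 6 of the 7 were lower within each of the 5 lines, the exception being Ogn in MTO207. None of the 7 passed an adjusted p of 0.05 in limma's fit over all tested genes with the line as a block (0% of all genes passed). Unadjusted limma p-values were under 0.05 for all 7 genes, against 3.66% of all genes with such a p and a lower mean in galunisertib tumours. A lower mean was found in 49.7% of all genes and a lower mean in 5 of 5 lines in 3.28%. Exact permutation of the treatment within lines (two-sided, over every arrangement, with 0.000257 as the smallest p it can give) had a p under 0.05 for 6 of the 7, Ogn being the exception, against 3.95% of all genes that were lower with such a p, and called 0 of the 7 after adjustment over all genes (0%). The 7 genes were chosen with earlier results of these data known, and they share the same arrays. Their counts beside the shares of all genes are therefore descriptions and no independent test. In bulk tumours, fewer cells of a type and less RNA per cell cannot be told apart.

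Among the chain-bearing relatives of the first class, Dcn, which binds collagen and TGF-beta, ranged from 7.91 to 9.29 with a median of 8.27 in 10 galunisertib tumours, and from 8.07 to 9.81 with a median of 9.29 in 10 control tumours. The ranges overlapped, with 4 galunisertib tumours below the lowest control and 5 control tumours above the highest galunisertib tumour. It averaged 8.42 ± 0.49 in galunisertib tumours and 9.15 ± 0.52 in control tumours (SD, n = 10 each), a difference of -0.73 on the log2 scale (SE 0.23, 1.66-fold lower, limma adjusted p = 0.349, exact permutation p = 0.0152). Bgn, its relative on chromosome X, ranged from 8.10 to 9.81 with a median of 8.78 in galunisertib tumours and from 8.48 to 10.51 with a median of 9.82 in control tumours. It averaged 8.92 ± 0.50 in galunisertib tumours and 9.69 ± 0.53 in control tumours (SD, n = 10 each), and the difference of -0.77 (SE 0.17, 1.71-fold lower) had an adjusted limma p of 0.158 and an exact permutation p of 0.00257. Above every galunisertib tumour lay 5 control tumours, and 1 galunisertib tumour lay below every control tumour. Aspn, the member of the first class without a chain, stayed near the floor of the array: only 1 galunisertib and 3 control tumours exceeded the filter value of 4.16. It averaged 3.97 in galunisertib tumours and 4.18 in control tumours, the difference was -0.21 (SE 0.06, limma adjusted p = 0.344), and values this dim bound the level more than they measure it.

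In the class of Lum and Fmod, which carry keratan sulfate, Lum had the lowest difference of the 7. It ranged from 3.69 to 5.38 with a median of 4.39 in galunisertib tumours and from 3.98 to 7.72 with a median of 5.97 in control tumours. The galunisertib tumours lay close together at the low end, and 6 control tumours lay above all of them. Lum averaged 4.38 ± 0.46 in galunisertib tumours and 5.89 ± 1.32 in control tumours (SD, n = 10 each), a difference of -1.50 (SE 0.43, 2.83-fold lower, limma adjusted p = 0.287, exact permutation p = 0.00952), and it was above the filter value in 8 galunisertib and 9 control tumours. Fmod, which binds the same region of collagen as Lum, averaged 5.77 in galunisertib tumours and 6.13 in control tumours, a difference of -0.36 (SE 0.13, limma adjusted p = 0.470, exact permutation p = 0.0224). Prelp, which links collagen to heparan sulfate of basement membranes, ranged from 5.97 to 6.72 in galunisertib tumours and from 6.35 to 7.29 in control tumours, with 7 control tumours above all galunisertib tumours and 4 galunisertib tumours below all control tumours. It averaged 6.40 in galunisertib tumours and 6.92 in control tumours, and its difference of -0.52 (SE 0.12, limma adjusted p = 0.158) had the smallest exact permutation p of the 7, at 0.00129. Ogn, the member of the third class, averaged 4.33 in galunisertib tumours and 4.66 in control tumours, a difference of -0.33 (SE 0.15, limma adjusted p = 0.621, exact permutation p = 0.0687), and was lower in 4 of 5 lines.

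**Figure D1:**
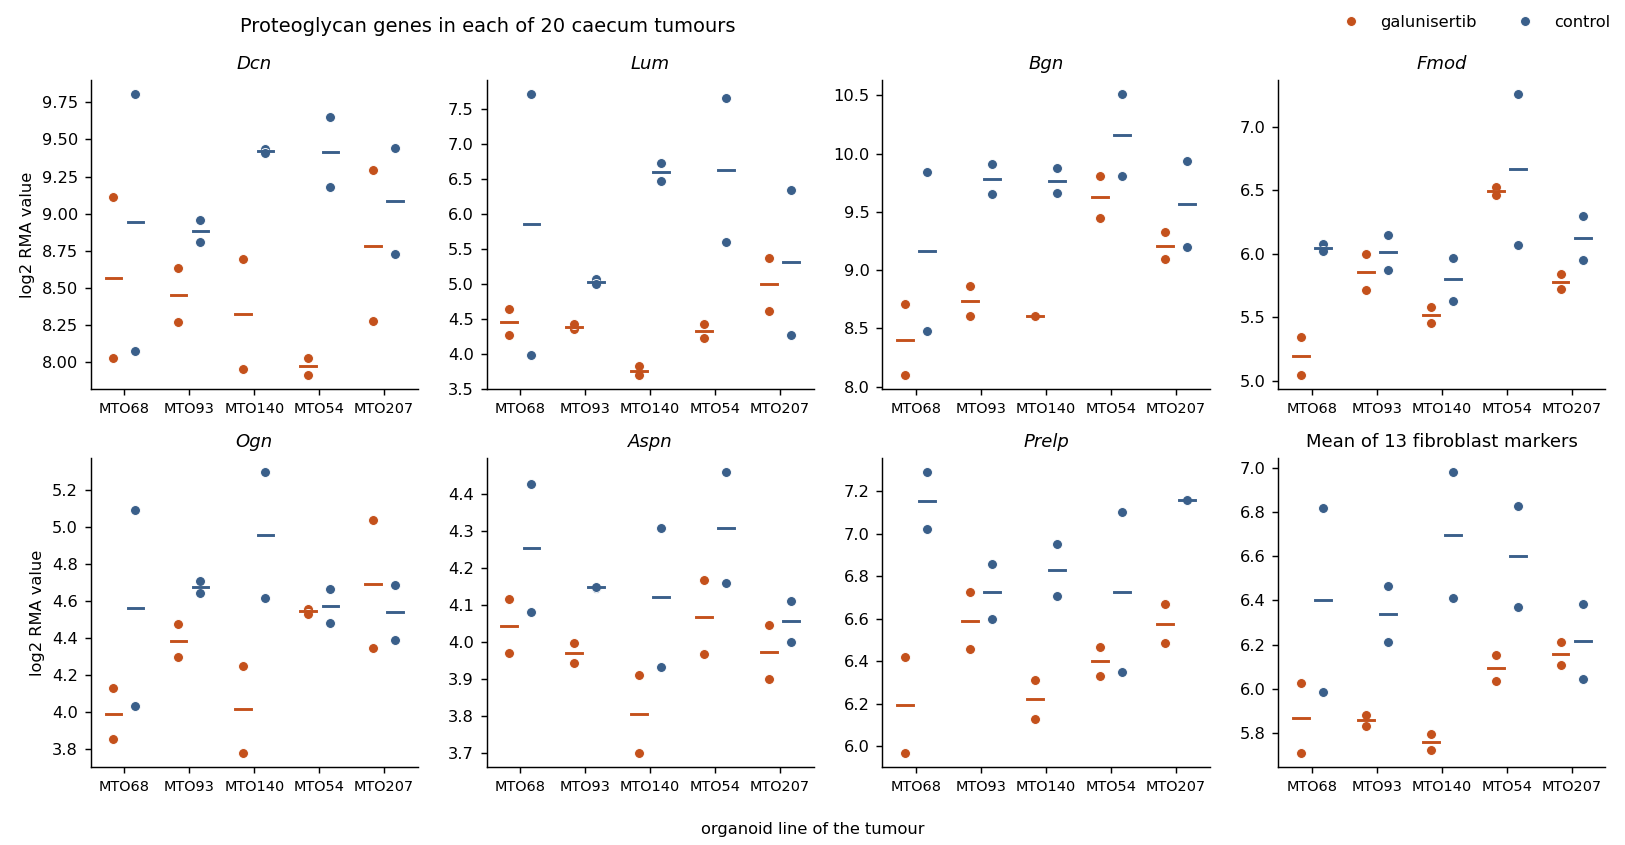
Log2 RMA values (y axis) of the 7 genes and of the mean of 13 fibroblast markers in the 20 tumours, by organoid line (x axis); points are tumours (galunisertib left, orange; control right, blue; n = 2 per group, some points coincide) and bars are group means. Lum reached 7.72 in control tumours and at most 5.38 in galunisertib tumours, and the y axes differ between panels.

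Array medians were close together, at 4.93 to 5.12, but tumour MTO68 control replicate 2 stood apart from its own pair. The SD of all values on its array was 1.47, against 1.76 to 1.82 on the other MTO68 arrays, the mean of the 7 genes was 5.99 in it and 7.14 in MTO68 control replicate 1, and the mean of 13 fibroblast markers was 5.99 in it and 6.82 in that replicate. Without it, 43 of all genes passed over 5 lines, and among the 7 genes Bgn did (difference -0.87, SE 0.15, limma adjusted p = 0.0209). Without it the differences of Dcn (-0.88, limma adjusted p = 0.0632), Lum (-1.78, 0.0536), Ogn (-0.39, 0.527) and Aspn (-0.23, 0.165) were farther from 0, and those of Fmod (-0.33, 0.571) and Prelp (-0.47, 0.0948) were closer to 0.

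Where a gene had a second probe set past the filter, the direction over 5 lines was the same. The other Bgn probe set gave -0.97 (SE 0.21), that of Prelp -0.53 (SE 0.13) and that of Ogn -0.15 (SE 0.08, with an unadjusted p above 0.05). The paired probe sets followed each other over the 20 arrays after centring on the lines with r = 0.99 for Bgn, 0.86 for Ogn, 0.78 for Prelp and 0.59 for Aspn, whose other probe set was above the filter value on 0 arrays.

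The second question was how the difference varied between lines. In MTO140, the line labelled LiM, both galunisertib tumours lay below both control tumours for all 7 genes, against 12.6% of all genes. Lum had 3.69 and 3.83 in its galunisertib tumours and 6.74 and 6.48 in its control tumours, with no overlap. Bgn had 8.61 and 8.61 in galunisertib tumours and 9.66 and 9.87 in control tumours. Dcn had 7.95 and 8.69 in galunisertib tumours and 9.44 and 9.41 in control tumours, and Ogn 3.78 and 4.25 in galunisertib tumours against 5.30 and 4.61 in control tumours. The differences in MTO140 were -2.85 for Lum (SE 0.92, 7.21-fold lower), -1.16 for Bgn (SE 0.39), -1.10 for Dcn (SE 0.51), -0.94 for Ogn (SE 0.31), -0.61 for Prelp (SE 0.24), -0.32 for Aspn and -0.28 for Fmod. Limma's adjusted p was at least 0.965 for each of them, 0 of 7 passed (0.00643% of all genes), and 5 of 7 had an unadjusted p under 0.05 (2.78%).

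In MTO54, the LAKP line, Dcn and Lum were the 2 of 7 genes with separated groups (16.4% of all genes). Dcn had 7.91 and 8.03 in galunisertib tumours and 9.65 and 9.18 in control tumours, a difference of -1.44 (SE 0.51). Lum had 4.23 and 4.42 in galunisertib tumours and 7.66 and 5.60 in control tumours, a difference of -2.30 (SE 0.92, 4.93-fold lower) that was -1.27 without MTO54 control replicate 1 and -3.33 without MTO54 control replicate 2. Bgn overlapped in this line, with 9.45 and 9.81 in galunisertib tumours and 10.51 and 9.80 in control tumours. Fmod had 6.53 and 6.46 in galunisertib tumours and 7.26 and 6.07 in control tumours, so that its galunisertib tumours lay between the control tumours. The Fmod difference of -0.17 was 0.42 without MTO54 control replicate 1, that of Ogn (-0.03) was 0.06 and that of Prelp (-0.33) was 0.05 without MTO54 control replicate 2. Adjusted p-values from limma were at least 0.999 and 0 of 7 passed (0%), while 2 of 7 had an unadjusted p under 0.05 with a lower mean (1.8%).

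In MTO68, a parental LAKTP line, Fmod and Prelp were the 2 of 7 genes with separated groups (23.2% of all genes). Prelp had 5.97 and 6.42 in galunisertib tumours and 7.02 and 7.29 in control tumours, a difference of -0.96 (SE 0.24, limma adjusted p = 0.0552). Fmod had 5.34 and 5.04 in galunisertib tumours and 6.07 and 6.02 in control tumours, a difference of -0.85 (SE 0.29, limma adjusted p = 0.0921). These were the lowest adjusted p-values of any of the 7 genes within a line, 0 of 7 passed (2.01% of all genes), and the 2 genes were also those with an unadjusted p under 0.05 (13.1%). The control tumours of MTO68 were far apart for the other genes. Lum had 4.64 and 4.27 in galunisertib tumours and 7.72 and 3.98 in control tumours, and Dcn had 8.02 and 9.11 in galunisertib tumours and 9.81 and 8.07 in control tumours. Without MTO68 control replicate 1 the Lum difference of -1.40 was 0.47 and the Dcn difference of -0.37 was 0.50, and Dcn was 0.17 without MTO68 galunisertib replicate 1. The Prelp difference was -1.10 without MTO68 control replicate 1 and -1.19 without MTO68 galunisertib replicate 2. Whether Fmod or Prelp passed in MTO68 changed in some fits with 1 array left out. Arrays of other lines had this effect too, as they entered through the shared spread. Such fits leave 1 tumour in a group, and the number of all genes passing in MTO68 changed in them as well.

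In MTO93, the other parental LAKTP line, 5 of 7 genes had separated groups (14.4% of all genes), but the differences were small apart from Bgn. Bgn had 8.60 and 8.86 in galunisertib tumours and 9.91 and 9.66 in control tumours, a difference of -1.05 (SE 0.39, limma adjusted p above 0.999). Lum had 4.35 and 4.43 in galunisertib tumours and 5.06 and 5.00 in control tumours, a difference of -0.64, and Dcn differed by -0.43. Fmod (-0.16) and Prelp (-0.14) overlapped. None of the 7 passed (0%), and 1 of 7, Bgn, had an unadjusted p under 0.05 (0.649% of all genes).

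In MTO207, the LAKT line, 6 of 7 genes were lower and 2 of 7 were separated, Fmod and Prelp, against 31.6% of all genes. Prelp had 6.67 and 6.48 in galunisertib tumours and 7.16 and 7.16 in control tumours, a difference of -0.58 (SE 0.24, limma adjusted p = 0.646). Ogn was higher in its galunisertib tumours, at 5.04 and 4.35, against 4.39 and 4.69 in control tumours, a difference of 0.15 (SE 0.31), and was -0.19 without MTO207 galunisertib replicate 1. The Lum difference of -0.31, the Dcn difference of -0.30 and the Bgn difference of -0.36 were 0.72, 0.05 and 0.01 without MTO207 control replicate 1, and Lum and Dcn were 0.07 and 0.20 without MTO207 galunisertib replicate 2. The SD of all values was 1.57 and 1.55 on the galunisertib arrays of this line and 1.46 on both control arrays, and its part in the counts was not tested. None of the 7 passed (0%), and 1 of 7, Prelp, had an unadjusted p under 0.05 with a lower mean (4.27%). The other Prelp probe set gave -0.28 (SE 0.29) in MTO207, with an unadjusted p above 0.05.

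**Figure D2:**
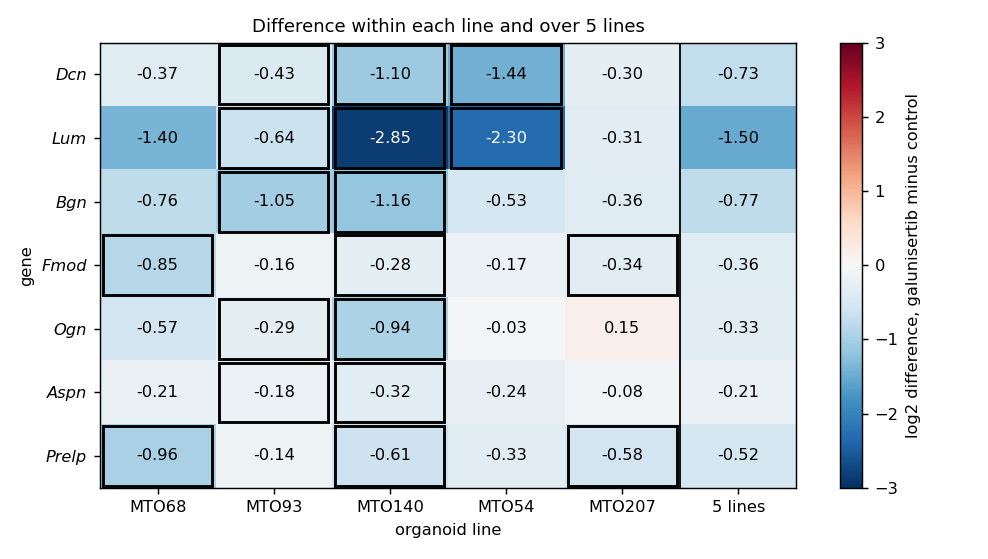
Log2 difference, galunisertib minus control, of each gene (y axis) within each line and over 5 lines (x axis), by colour and printed value; a black frame marks lines in which both galunisertib tumours lay below both control tumours (n = 2 each). All 7 genes are framed in MTO140, and the only difference above 0 is that of Ogn in MTO207, 0.15.

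The difference itself was tested between lines with limma's F test over the 5 effects. It called 0 of the 7 genes (0.0643% of all genes), with adjusted p-values of 0.563 for Ogn, 0.577 for Prelp, 0.614 for Lum and up to 0.923 for Aspn. The spread of the Lum difference, from -2.85 in MTO140 to -0.31 in MTO207, was therefore not distinguished from the spread between replicate tumours, of which the widest pair, the MTO68 control tumours, was 3.74 apart. Over the lines, 4 of the 7 genes were separated in at least 3 lines (5.34% of all genes) and all 7 in at least 2 lines (26.7%).

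Levels in the untreated tumours were then compared between lines. By mean, Lum was highest in MTO54 control tumours (6.63), followed by MTO140 (6.61), MTO68 (5.85), MTO207 (5.31) and MTO93 (5.03). Dcn followed the order MTO140 (9.42), MTO54 (9.41), MTO207 (9.09), MTO68 (8.94) and MTO93 (8.88), and Bgn the order MTO54 (10.16), MTO93 (9.78), MTO140 (9.77), MTO207 (9.57) and MTO68 (9.16). Fmod was highest in MTO54 (6.66) and lowest in MTO140 (5.80), Ogn ranged between line means of 4.96 in MTO140 and 4.54 in MTO207, Aspn between 4.31 in MTO54 and 4.06 in MTO207, and Prelp between 7.16 in MTO207 and MTO68 and 6.73 in MTO54 and MTO93. Of 28 pairs of neighbours in these orders, 27 had overlapping ranges, and the exception was Prelp in MTO68 above MTO140. The F test called 0 of 7 genes (2.8% of all genes), with the lowest adjusted p for Fmod (0.180). None of 70 pairwise contrasts of the 7 genes passed (lowest limma adjusted p = 0.188). Of all genes, 40.1% passed in MTO207 minus MTO140, 2.22% in MTO54 minus MTO68, 1.72% in MTO140 minus MTO68, 1.44% in MTO207 minus MTO68 and 1.15% in MTO54 minus MTO140. The shares were 0.283% in MTO207 minus MTO54, 0.251% in MTO93 minus MTO68, 0.122% in MTO54 minus MTO93, 0.0514% in MTO140 minus MTO93 and 0% in MTO207 minus MTO93. The share in MTO207 minus MTO140 changed widely when 1 control array of either line was left out. Such a fit leaves 1 tumour in a group. The SD of all values was 1.83 and 1.66 on the MTO140 control arrays and 1.46 on both MTO207 control arrays. Its part in this share was not tested. Each line was run on its own strip of arrays as the design text is read here, so a strip effect and a line effect cannot be told apart. Whether Bgn, Lum or Fmod passed this F test changed in some fits with 1 control array of MTO68 or MTO54 left out. Those fits leave 1 tumour in a group, and the number of all genes passing the F test rose in them.

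The likeness of the 7 patterns was described by correlation over the 20 tumours, which share the same arrays and, per line, the same strip. After centring each gene on the mean of each line, Lum, Bgn, Dcn and Aspn followed each other with Pearson's r of 0.77 to 0.87. The Aspn probe set used exceeded the filter value on only 4 of the 20 arrays, so its r values rest on signal near the floor. Lum and Bgn had r = 0.87 (Spearman's rho 0.79), and 0.81 without the 2 tumours farthest from the median of Lum. Fmod and Prelp were less like them. Fmod had r = 0.59 with Lum, 0.57 with Bgn and 0.37 with Dcn, and Prelp had 0.34 with Lum, 0.48 with Bgn and 0.37 with Dcn. Without the 2 tumours farthest from the median of Lum, r with Lum was 0.32 for Fmod and 0.40 for Prelp. Centred on each of the 10 groups, which takes the treatment difference out, Lum and Bgn had r = 0.88. The Prelp probe set used was negative with each of the others, from -0.16 with Dcn to -0.62 with Fmod. With 2 tumours per group these group-centred values rest on the difference within each pair. In the MTO68 control pair, where Lum was 7.72 and 3.98, the Prelp probe set used was 7.02 and 7.29. The other Prelp probe set was 7.51 and 7.19 there, so the negative sign is given only for the probe set used.

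**Figure D3:**
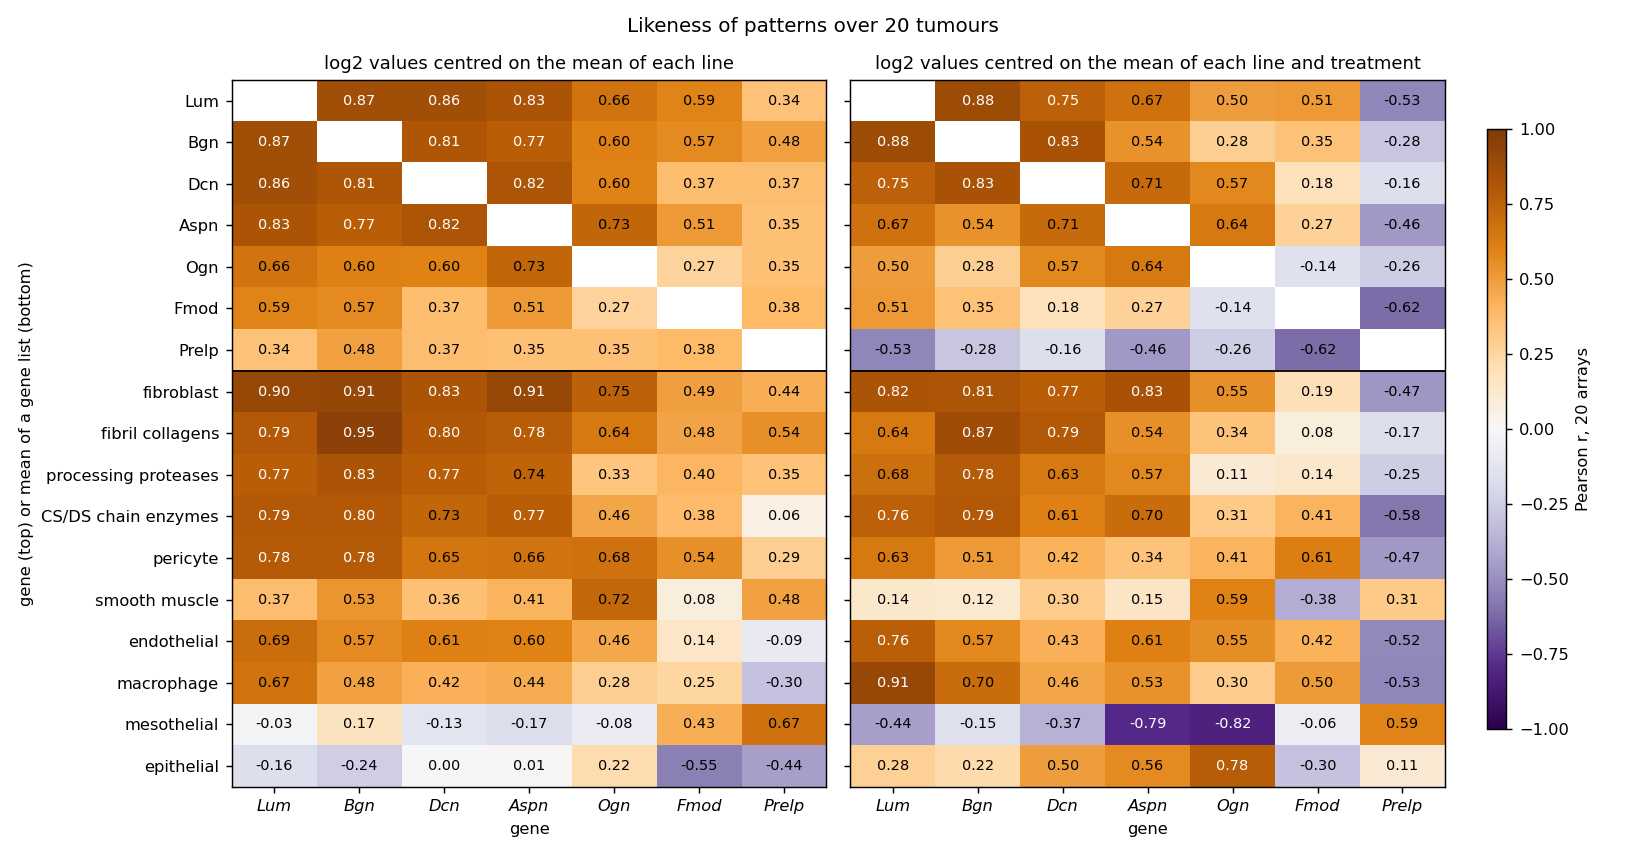
Pearson's r (colour and printed value) of each of the 7 genes (x axis) with each other and with the mean of marker or pathway lists (y axis) over 20 tumours, after centring log2 values on line means (left) or on line and treatment means (right). Lum, Bgn, Dcn and Aspn (values near the floor of the array) form a block of r from 0.77 to 0.87 on the left, and the row of Prelp, by the probe set used, turns negative on the right.

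Of all tested genes outside the family, those most like Lum on the line-centred scale were Ltbp2 (r = 0.95), Mfap5 (0.95), Olfml3 (0.93), Fkbp7 (0.93) and Ccdc80 (0.91). Ltbp2 and Mfap5 encode proteins of elastic microfibrils. Those most like Bgn were Fstl1 (0.96), the type I collagen gene Col1a1 (0.96), the gelatinase gene Mmp2 (0.95), Copz2 (0.95) and Mxra8 (0.95). Dcn was most like Rora (0.94), Lhfp (0.92), the oncostatin M receptor gene Osmr (0.92), Rhoj (0.92) and Mxra8 (0.91). Aspn, at values near the floor of the array, was most like Emilin1 (0.92), Grb10 (0.91), the fibroblast activation protein gene Fap (0.91), Ldlrad4 (0.90) and Crispld2 (0.90). Fmod was most like Hoxc8 (0.88), Plxdc2 (0.85), Rarg (0.83), Angpt4 (0.83) and Plxnd1 (0.83). Ogn was most like the dermal matrix genes Dpt (0.84) and Tnxb (0.83), then Clip3 (0.81), Dmd (0.80) and Pgm5 (0.79). Prelp was most like Mustn1 (0.90), Mrvi1 (0.89), Wnt2 (0.89), Boc (0.88) and Zfp764 (0.87), so only Mxra8 stood among the first 5 of more than 1 of the 7 genes.

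Other genes of the SLRP pathway were read from lists over 5 lines, where no list gene passed limma's adjusted threshold. Of 10 further members of the family, 6 were tested (Nyx, Podn, Optc, Epyc, Chad and Kera), 4 were lower, 0 had an unadjusted p under 0.05, and the median difference was -0.04, against 0.00 for all genes and -0.52 for the 7. Kera and Epyc are the neighbours of Lum and Dcn on chromosome 10, and their differences were -0.04 (SE 0.10) and -0.04 (SE 0.07) at mean values near the filter (4.09 and 3.88 in galunisertib tumours, 4.13 and 3.92 in control tumours). Of 19 tested enzymes that build chondroitin and dermatan sulfate chains, 17 were lower and 2 had an unadjusted p under 0.05, the epimerase gene Dsel (-0.28, SE 0.09) and the dermatan sulfotransferase gene Chst14 (-0.24, SE 0.10), with a median of -0.09. Of 6 keratan sulfate enzymes 4 were lower, and the sulfotransferase genes Chst1 (-0.33, SE 0.11) and Chst2 (-0.29, SE 0.13) had an unadjusted p under 0.05.

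The collagens that SLRPs bind lay lower as a list. All 13 tested fibril, fibril-associated and type VI collagen genes were lower, 11 with an unadjusted p under 0.05, and their median was -0.62. Col3a1 averaged 11.14 in galunisertib tumours and 11.76 in control tumours, a difference of -0.62 (SE 0.14, limma adjusted p = 0.158), and Col5a2, a chain of the type V collagen that regulates fibril diameter, averaged 9.05 in galunisertib tumours and 10.00 in control tumours, a difference of -0.95 (SE 0.25). Of 10 proteases and enhancers that process collagens or SLRPs, 10 were lower and 4 had an unadjusted p under 0.05. Among them, Mmp2 differed by -1.07 (SE 0.30) and Bmp1, the protease that removes the propeptides of Bgn and of collagens, by -0.59 (SE 0.16). Of 8 TGF-beta ligands and receptors 7 were lower, and Tgfb3 (-0.72, SE 0.23) and Eng (-0.25, SE 0.09) had an unadjusted p under 0.05. Of 12 receptors known to bind SLRPs 7 were lower, with a median of -0.08. Among those, Lrp1, the endocytic receptor of Dcn, differed by -0.53 (SE 0.24, with an unadjusted p under 0.05) and Met, bound by Dcn in human cells, by 0.32 (SE 0.16, with an unadjusted p above 0.05). Of 11 other proteoglycans 7 were lower with a median of -0.20, including Vcan (-0.49, SE 0.17) and Sdc2 (-0.34, SE 0.11). As counts, the 13 of 13 collagens and 12 of 13 fibroblast markers that were lower stand beside 49.7% of all genes. The list counts of lower genes with an unadjusted p under 0.05 stand beside 3.66% of all genes.

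**Figure D4:**
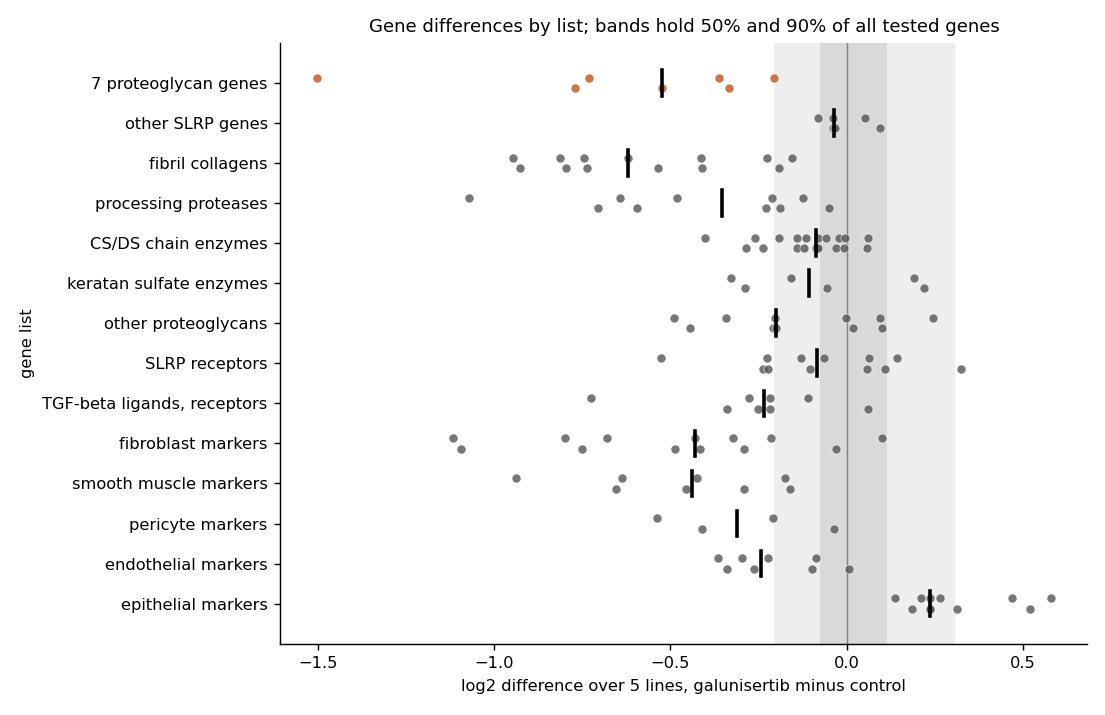
Log2 difference over 5 lines, galunisertib minus control (x axis), of each tested gene by list (y axis); orange points are the 7 genes, grey points other genes, black ticks list medians, and the bands hold the middle 50% and 90% of all tested genes. The 7 genes lie between -1.50 and -0.21, and the 6 other SLRP genes between -0.08 and 0.09.

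Markers of the cells that make SLRPs lay on the same side. Of 13 tested fibroblast markers 12 were lower and 8 had an unadjusted p under 0.05, with a median of -0.43, and Pdgfra was below the filter. Their mean ranged from 5.71 to 6.21 in galunisertib tumours and from 5.99 to 6.98 in control tumours, and was lower in 5 of 5 lines. Smooth muscle markers were lower for 8 of 8 (median -0.44), pericyte markers for 4 of 4 (-0.31) and endothelial markers for 7 of 8 (-0.24). By list mean, smooth muscle and pericyte markers were each lower in 4 of 5 lines and endothelial markers in 3 of 5. Epithelial markers were higher for 11 of 11 (median 0.24), among them Krt8 (0.24, SE 0.08) and Vil1 (0.58, SE 0.26). Macrophage markers (6 of 8 lower, median -0.05), mesothelial markers (4 of 4 lower, -0.09), enteric neuron and glia markers (-0.01), skeletal and tendon markers (-0.02) and adipocyte markers (-0.14) had medians closer to 0. The part of stromal content in the SLRP differences was not tested beyond the following readings of the same values. With the fibroblast mean as a covariate, the differences were 0.06 for Lum (SE 0.36), 0.11 for Ogn (SE 0.17), -0.05 for Dcn, 0.00 for Aspn, -0.20 for Bgn (SE 0.16), -0.29 for Fmod (SE 0.19) and -0.64 for Prelp (SE 0.17, limma adjusted p = 0.0250), and Prelp passed. That pass stands beside 3887 of 15556 genes that passed with this covariate, against 0 without it. As a plain log2 ratio to the fibroblast mean, Lum was lower by a mean of -1.0 and in 5 of 5 lines, Bgn by -0.27 in 5 of 5 and Dcn by -0.23 in 3 of 5, whereas Prelp was at -0.02, Fmod at 0.14, Ogn at 0.17 and Aspn at 0.30.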

How the data were processed

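RNA from 20 whole tumour fragments was hybridised to 1 array each, and the values used are log2 expression values as the authors deposited them, one for each probe set. The submitters' processing notes name RMA and affy for this step, without versions, and no genome build. Their number limits the precision. The table held 45141 probe sets, of which 28898 carried a single gene symbol; per gene the probe set with the highest mean was used. A gene was tested where 2 or more arrays exceeded log2 4.16, which is the 25th percentile of the whole table (15556 genes). Samples labelled LY were taken as the galunisertib group. The linear models used all 20 arrays (limma 3.58.1, R 4.3.3, moderated variances with a trend on mean level): a fit of treatment with line as a block, and a fit with a mean for each of 10 groups for effects within lines, F tests between lines and control levels. All p-values are two-sided, the threshold is 0.05 after Benjamini-Hochberg adjustment over all tested genes, and each adjusted p is limma's. An exact permutation within lines was run for each gene. The design text calls the replicates biological. No 2 arrays were identical. The scripts were tested on simulated data. Named beyond the 7 genes were up to 4 genes per list with the smallest unadjusted p, any list gene that passed, and per gene the 5 most like it. The further tested SLRPs were named after their values were seen. The members and lists were chosen with earlier results of these data known. Alternatives changed the filter, probe set choice, normalization, variance trend, weights, block, a fibroblast covariate and the arrays or lines left out. Plots were drawn with matplotlib 3.10.9.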

Additional observations from a re-analysis of the deposited data

Results flagged for a closer look

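Among the 14 sets of 10 galunisertib or 10 control tumours checked for a lone extreme value (7 genes in each), 1 stood out, and chance gives about 1 in 20. Fmod was 7.26 in MTO54 control replicate 1, the highest of 10 control tumours, and its gap to the next tumour was 0.59 of the whole range, above the critical value of Dixon's test for 10 values. The other MTO54 control tumour had 6.07 and the galunisertib tumours of that line 6.53 and 6.46.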

How the results depend on the processing

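Over 5 lines, 245 values of single genes were recomputed under alternatives: 236 kept their direction and side of the threshold, 7 passed it and 2 changed sign. Within lines, where only the line's own arrays were left out in turn for these counts, they were 389, 3 and 13 of 405. The number of the 7 genes passing over 5 lines, 0 as reported, was 2 after quantile normalization (Bgn and Dcn; 57 of all genes passed), 3 with array weights (Bgn, Lum and Prelp; 116 of all genes) and 1 with the fibroblast covariate (Prelp; 3887 of all genes), and ranged from 0 to 1 when each array was left out, where the 1 was Bgn without MTO68 control replicate 2. With that covariate 1 gene in place of 7 had an unadjusted p under 0.05, and the differences of Lum and Ogn were 0.056 and 0.11; the cause was not tested. In MTO68, 1 gene passed after quantile normalization (Bgn, beside 139 of all genes). The number passing in MTO68 also changed in some fits with 1 array left out, which leave 1 tumour in a group. For control levels between lines, the number of the 7 genes passing changed in some such fits, as did that of all genes. Aspn in MTO207 was 0.0062 after quantile normalization. Leaving out 1 of the line's own arrays moved 24 of the 35 differences within lines by over 1.5 times, and 9 of these changed sign: in MTO68 Dcn -1.24 to 0.50 and Lum -3.27 to 0.47; in MTO54 Fmod -0.76 to 0.42, Ogn -0.12 to 0.062 and Prelp -0.70 to 0.048; in MTO207 Dcn -0.81 to 0.20, Lum -1.35 to 0.72, Bgn -0.73 to 0.013 and Ogn -0.19 to 0.50. The other 15 kept their sign: in MTO68 Bgn -1.44 to -0.079, Ogn -1.10 to -0.043 and Aspn -0.38 to -0.039; in MTO93 Dcn -0.61 to -0.25, Fmod -0.30 to -0.015 and Prelp -0.27 to -0.0032; in MTO140 Dcn -1.47 to -0.73, Fmod -0.45 to -0.11, Ogn -1.28 to -0.60 and Aspn -0.50 to -0.13; in MTO54 Lum -3.33 to -1.27, Bgn -0.88 to -0.18 and Aspn -0.39 to -0.091; in MTO207 Fmod -0.52 to -0.17 and Aspn -0.16 to -0.0097. A group left with 1 tumour was assumed to vary like the others. The stricter filter kept 5 of the 7 genes, and averaging probe sets kept 6. The probe sets tested apart were chosen after seeing the data. No paired analysis was possible because the labels give no replicate numbers shared by the groups. Signal near background limits Aspn, Ogn and the lower Lum values.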

Other observations

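The members differed in which other marker lists they followed over the 20 tumours, given here as values that share the same arrays. On the line-centred scale the Prelp probe set used had r = 0.67 with the mean of 4 mesothelial markers (Spearman's rho 0.54, and 0.42 without the 2 farthest tumours), whereas Lum had r = -0.03. The other Prelp probe set was not read against this list. Ogn had r = 0.72 with the mean of 8 smooth muscle markers (rho 0.83, and 0.69 without the 2 farthest tumours), against 0.37 for Lum and 0.36 for Dcn. Lum had r = 0.67 with the mean of 8 macrophage markers (rho 0.72, and 0.69 without the 2 farthest tumours), and 0.91 after centring on the 10 groups. The macrophage mean was 8.32 in MTO68 control replicate 1 and 6.93 in MTO68 control replicate 2, the pair in which Lum was 7.72 and 3.98.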
